A study of Mus musculus with 6 samples.

Results

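Chromatin accessibility at the genes for proteasome subunits was profiled by ATAC-seq, a method that cuts accessible DNA with a transposase, in mouse long-term haematopoietic stem cells (LT-HSCs) kept in suspension or held under a low ceiling. Members were the protein-coding RefSeq genes whose symbol is Psm, a letter from a to g and a number. Of 21896 protein-coding genes with a position, 51 matched, and 43 of them had at least 1 peak of the consensus set with its midpoint within 1 kb of either end of the gene. These 43 genes held 45 of the 42632 peaks, and 11270 peaks lay that close to an end of any protein-coding gene (gene-end peaks). Psmc3ip, a factor in homologous recombination, and Psme3ip1, a partner protein of Psme3, matched by symbol without being subunits.

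Cells of all libraries were taken from the bone marrow of mice of the C57BL/6 strain at an age of 10 to 16 weeks, with no transgene or mutation named, and the cells were sorted as negative for lineage markers, CD34 and Flt3 and positive for Sca1 and cKit. The 3 unconfined samples stayed 16 h in suspension. The 3 confined samples spent 13 h in suspension, 0.5 h on fibronectin-coated glass and 2 h under a coverslip carried by 5 µm pillars, and were then detached with a dissociation reagent. Attachment and detachment went with confinement, so their effects cannot be told apart from it, and the unconfined cells saw neither. The samples are described as biological replicates from 3 experimental batches with 1 sample of each group, and whether each came from separate animals is not stated, so p-values measure the spread between these samples.

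The proteasome is the protease that degrades proteins tagged with ubiquitin. Its barrel-shaped core particle has outer rings of alpha subunits and inner rings of beta subunits that carry the protease sites, and a regulatory particle of ATPase and non-ATPase subunits unfolds the substrate and feeds it into the core. Haematopoietic stem cells are known for slow protein synthesis and for their dependence on protein quality control, and blood cells can replace the catalytic beta subunits by inducible ones that make up the immunoproteasome.

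Unconfined libraries 1 to 3 held 304898, 1229478 and 983863 counts over all peaks and confined libraries 1 to 3 held 340922, 221390 and 128257, so that the median proteasome peak held 10, 42 and 39 counts and 8, 5 and 2 counts, respectively. The confined libraries differed from each other: over the 45 proteasome peaks, log2(CPM + 1) correlated with the unconfined libraries at r = 0.462 to 0.595 for confined library 1, at 0.336 to 0.406 for confined library 2 and at -0.003 to 0.030 for confined library 3, against 0.805 to 0.889 among unconfined libraries (Pearson's r across peaks, which are not replicates and share depth and base composition). Peaks near the ends of stem cell marker genes were found for 5 of 9 genes (Hlf, Kit, Meis1, Procr and Tal1), at 0.0197% to 0.0247% of counts in unconfined and 0.0156% to 0.0199% in confined libraries. Lineage markers had peaks at 1 of 8 genes (Ebf1), at 0.00328% to 0.00346% and 0.00390% to 0.00587%. Peaks near Cd34 and Flt3, whose proteins were selected against in the sort, together held 0.00356% to 0.00656% and 0.00390% to 0.00645%. The part of cell composition in the results was not tested, and in bulk chromatin fewer cells with an open site cannot be told apart from less opening per cell.

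The promoters of 7 proteasome genes are printed because the results below turn on them: Psmc4, Psme2 and Psmd12 had the most negative fitted changes, and Psmb5, Psmb8, Psmb9 and Psmb10 encode catalytic subunits. Sequences are from RefSeq (GRCm38.p6, the mm10 assembly), run 5′ to 3′ along the gene from 250 bases before to 50 bases after the start, and capitals mark a match to a motif named in the next paragraph.
Psmc4, chr7:28050043-28050342, minus strand: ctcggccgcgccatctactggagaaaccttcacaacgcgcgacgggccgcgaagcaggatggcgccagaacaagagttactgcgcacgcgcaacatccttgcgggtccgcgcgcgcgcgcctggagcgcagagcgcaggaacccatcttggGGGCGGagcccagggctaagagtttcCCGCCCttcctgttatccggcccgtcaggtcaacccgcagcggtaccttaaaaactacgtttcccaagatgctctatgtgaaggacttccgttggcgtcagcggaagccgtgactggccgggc
Psme2, chr14:55591052-55591351, minus strand: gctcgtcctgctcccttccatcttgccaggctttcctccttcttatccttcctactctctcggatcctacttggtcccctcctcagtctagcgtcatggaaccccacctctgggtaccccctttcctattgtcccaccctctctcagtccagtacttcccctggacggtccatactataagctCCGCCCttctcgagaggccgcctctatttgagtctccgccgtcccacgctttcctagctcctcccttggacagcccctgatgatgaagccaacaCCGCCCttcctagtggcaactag
Psmd12, chr11:107479278-107479577, plus strand: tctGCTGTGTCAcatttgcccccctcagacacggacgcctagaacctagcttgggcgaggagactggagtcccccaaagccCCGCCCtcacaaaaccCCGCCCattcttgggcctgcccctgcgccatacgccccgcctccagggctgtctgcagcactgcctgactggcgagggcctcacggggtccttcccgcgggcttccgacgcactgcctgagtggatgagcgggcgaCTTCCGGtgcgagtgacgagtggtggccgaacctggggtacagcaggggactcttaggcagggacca
Psmb5, chr14:54617946-54618245, minus strand: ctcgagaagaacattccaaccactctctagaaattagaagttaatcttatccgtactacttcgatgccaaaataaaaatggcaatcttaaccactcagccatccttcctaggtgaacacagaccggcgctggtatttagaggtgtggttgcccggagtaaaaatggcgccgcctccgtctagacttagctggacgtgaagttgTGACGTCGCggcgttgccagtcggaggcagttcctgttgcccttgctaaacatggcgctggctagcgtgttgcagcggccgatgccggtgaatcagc
Psmb8, chr17:34197945-34198244, plus strand: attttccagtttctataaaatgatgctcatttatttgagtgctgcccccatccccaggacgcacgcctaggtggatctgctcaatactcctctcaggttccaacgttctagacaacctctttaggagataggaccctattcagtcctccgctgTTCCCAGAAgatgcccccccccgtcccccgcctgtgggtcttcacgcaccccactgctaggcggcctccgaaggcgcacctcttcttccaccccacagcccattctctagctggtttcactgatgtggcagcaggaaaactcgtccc
Psmb9, chr17:34187281-34187580, minus strand: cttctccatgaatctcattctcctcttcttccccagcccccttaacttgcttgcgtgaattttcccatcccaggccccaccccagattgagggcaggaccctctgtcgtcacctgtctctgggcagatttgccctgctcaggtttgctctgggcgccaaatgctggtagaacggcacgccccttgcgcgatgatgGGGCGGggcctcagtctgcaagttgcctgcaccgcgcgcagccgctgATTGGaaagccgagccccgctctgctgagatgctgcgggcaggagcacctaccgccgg
Psmb10, chr8:105938343-105938642, minus strand: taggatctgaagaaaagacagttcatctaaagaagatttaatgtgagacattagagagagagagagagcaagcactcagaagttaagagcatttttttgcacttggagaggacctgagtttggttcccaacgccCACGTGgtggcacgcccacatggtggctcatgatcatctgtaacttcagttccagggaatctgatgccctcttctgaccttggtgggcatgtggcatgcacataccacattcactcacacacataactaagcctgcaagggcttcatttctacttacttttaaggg
These 7 windows all overlapped the peak assigned to their gene.

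A RefSeq promoter entry was found for 36 of the 43 genes with a peak, and 35 of these windows of 300 bases overlapped the gene's own peak. Both strands were searched for 9 motifs, which are listed here with N for any base. The ETS motif CCGGAAG was present in 14 of 35 proteasome promoters (40.0%), against 18.3% of the 12473 windows that overlapped any peak and 8.86% of all 32851 windows. The interferon response motif GAAANNGAA was present in 6 (17.1%), against 6.59% and 8.56%. These were Psmb3, Psmb4, Psmd4, Psmd9, Psme1 and Psmg4, and not the inducible Psmb8, Psmb9 and Psmb10. The other motifs stood closer to the share in peak-overlapping windows. The SP and KLF motif GGGCGG was in 62.9% of proteasome promoters and 65.7% of peak-overlapping windows, the NF-Y box CCAAT in 34.3% and 37.8%, the E-box CACGTG in 14.3% and 10.7%, and the STAT motif TTCNNNGAA in 5.71% and 6.50%. The antioxidant response motif TGACNNNGC, bound by Nfe2l1 and Nfe2l2, was in 6 promoters (Psmb5, Psmb6, Psmc6, Psmd12, Psmd9 and Psme4), or 17.1% against 14.7%. The CREB motif TGACGTCA and the NF-kappa-B motif GGGANTTCC were in none of the 35, against 3.35% and 2.40%. The antioxidant and CREB motifs share the letters TGAC, and matches to the interferon and STAT motifs can overlap each other. A match describes letters in a window, not a bound site. The median GC content of the 35 windows was 59.0%, against 61.7% of peak-overlapping windows and 52.7% of all windows.

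In unconfined cells the 43 proteasome genes with a peak had peaks that ranked somewhat above gene-end peaks as a whole. The median percentile of their 45 peaks among all peaks by unconfined mean CPM was 83.8, against 75.5 for gene-end peaks, and 43 of 45 lay above the median of all peaks. The top decile held 13 of them (28.9%), against 24.1% of gene-end peaks. All peaks were 700 bp wide. Their midpoints lay 5 to 783 bp from the gene end, with a median of 125 bp, and 40 of 45 lay within 300 bp. Strand was known for 38 peaks and the near end was the 5′ end in all 38, against 89.4% of 10383 pairs of a gene-end peak and a gene. The 45 peaks lay within 1 kb of another protein-coding gene in 13 cases (28.9%), against 14.3% of gene-end peaks, so accessibility there cannot be assigned to the proteasome gene alone. Psme2 shared its peak with Rnf31, Psma2 with Mrpl32, and Psmb8 and Psmb9 each with Tap1, the peptide transporter of antigen presentation.

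No peak lay within 1 kb of an end of 8 genes. They included Psma6 and Psma7 of the alpha ring, with the nearest peak 5646 and 11458 bp away, the ATPase Psmc5 at 39459 bp, the proteasome inhibitor Psmf1 at 2965 bp and the assembly chaperone Psmg1 at 5130 bp. The tissue-restricted Psma8, known from testis, and Psmb11, known from thymus, had their nearest peaks at 21004 and 7171 bp, and the latter peak was that of Psmb5. Psme2b had its nearest peak at 21437 bp.

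The share of counts that fell in proteasome peaks was lower in the confined libraries. In the order of their numbers, the unconfined libraries had 0.204%, 0.181% and 0.197% of all peak counts there, with exact 95% Clopper-Pearson intervals of 0.189% to 0.221%, 0.173% to 0.189% and 0.189% to 0.206%. The confined libraries had 0.127%, 0.105% and 0.0912%, with intervals of 0.115% to 0.139%, 0.092% to 0.119% and 0.075% to 0.109%. No confined interval reached an unconfined one, and these intervals cover counting error only. The group values were 0.194% ± 0.0121 and 0.108% ± 0.0179 (SD, n = 3 each), a ratio of 0.554 and a difference of -0.0867 percentage points. Confined library 1, the library nearest to the unconfined ones, also lay below all 3 of them.

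Gene ends in general also took a smaller share of the confined libraries. Gene-end peaks held 40.9% ± 2.25 of unconfined and 26.3% ± 4.06 of confined counts (SD, n = 3 each), a ratio of 0.642. As a share of gene-end counts alone, proteasome peaks held 0.496%, 0.469% and 0.459% in unconfined and 0.409%, 0.438% and 0.381% in confined libraries. The groups did not overlap, and the ratio of their means was 0.862, with 0.475% ± 0.0195 against 0.409% ± 0.0288. The confined values rest on 432, 232 and 117 counts in proteasome peaks. No intervals were made for this share, so counting error was not set against the difference. The mean count of a proteasome peak was 1.84 ± 0.114 times that of all peaks in unconfined libraries and 1.02 ± 0.170 times in confined libraries. Set against the mean gene-end peak it was 1.24, 1.18 and 1.15 times in unconfined and 1.03, 1.10 and 0.953 times in confined libraries. A sum over these genes was given no test, since they were chosen together.

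**Figure D1:**
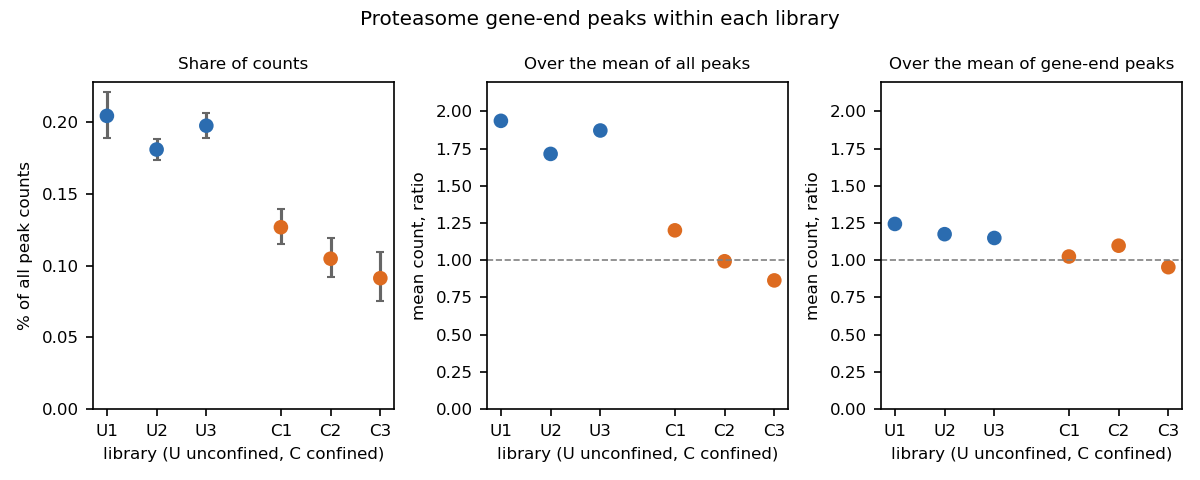
Proteasome peaks within each library (U, unconfined; C, confined; 1 point per library): their percentage of all peak counts with 95% Clopper-Pearson bars (left), and their mean count over that of all peaks (centre) and of gene-end peaks (right), with a dashed line at a ratio of 1. The confined libraries lie below all unconfined libraries in each panel, by the least in the right one.

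Single peaks were compared with edgeR's quasi-likelihood test on all 9084 peaks that passed its filter. The filter was about 31.0 CPM over all peak counts in at least 3 libraries. Levels of single peaks are in TMM-scaled CPM, counts scaled to a total of 1000000 in tested peaks, unless all peak counts are named. On this scale 1 count is 6.72, 1.90 and 2.04 CPM in unconfined and 8.34, 18.6 and 31.4 CPM in confined libraries 1 to 3, so single confined values are coarse. The filter passed 23 of the 45 proteasome peaks, 6 of them through the unconfined libraries alone (Psmc4, Psmd12, Psme1, Psma2, Psmb6 and Psmd11), and 22 were not tested. A peak that enters in this way is selected for being high in unconfined cells, so the counts and medians over tested peaks below are descriptions.

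The peaks of Psmc4, an ATPase of the regulatory particle, and Psme2, a subunit of an activator that caps the core, fell in confined cells (edgeR quasi-likelihood test, Benjamini-Hochberg adjusted p under 0.05), and none rose. The share called lower was 2.42% of all tested peaks and 3.78% of the 4633 tested gene-end peaks, and the share called higher was 5.79% and 1.08%. Unadjusted p was under 0.05 for 5 proteasome peaks, 4 lower (Psmc4, Psme2, Psmd12 and Psmb3) and 1 higher (Psmb8), against 17.5% lower and 4.25% higher among tested gene-end peaks. The 4 lower peaks of 23 are thus near the background share. After adjustment limma-voom called 1 peak higher where DESeq2 called 0, against 8.62% and 4.99% of all tested peaks. The fitted log2 fold change was negative for 16 of 23 (69.6%), against 67.0% of tested gene-end peaks and 51.4% of all tested peaks. The median was -0.26 for proteasome peaks, -0.26 for tested gene-end peaks and -0.02 for all tested peaks, so the tested proteasome peaks lay where gene ends as a whole did. Over tested and untested peaks together, median confined levels were close, at 77.8 CPM for proteasome, 80.3 for gene-end and 82.5 for all peaks. The unconfined medians were 76.3, 58.6 and 34.3 CPM. How far a high unconfined level alone goes with a lower call was not tested.

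The number of lower peaks depended on the scale. TMM scaling centres on the tested peaks, while scaling by all peak counts alone moved the median of all tested peaks from -0.02 to -0.68, that of tested gene-end peaks to -0.92 and that of proteasome peaks to -0.98. With that scaling edgeR called 9 of the 23 proteasome peaks lower and none higher, and 35.4% of tested gene-end peaks lower, and over all tested peaks it called 25.2% lower and 3.83% higher. All 3 confined libraries lay below all 3 unconfined ones in 6 of 45 proteasome peaks on the TMM scale, against 11.8% of gene-end peaks, and above them in 4, against 19.7%. Over all peak counts they lay below in 21 of 45, against 31.4%, and above in 1, that of Psmb10, against 6.34%. Within batches 1, 2 and 3 the confined sample was lower over all peak counts in 33, 38 and 35 of 45 peaks, against 59.6%, 70.2% and 66.1% of gene-end peaks, and on the TMM scale in 23, 20 and 23, against 41.2%, 43.3% and 43.4%. Tested without a filter, 7 of 45 were called lower (Psmc4, Psmd12, Psme2, Psma5, Psmb3, Psmg4 and Psmd11), against 11.7% of gene-end peaks.

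**Figure D2:**
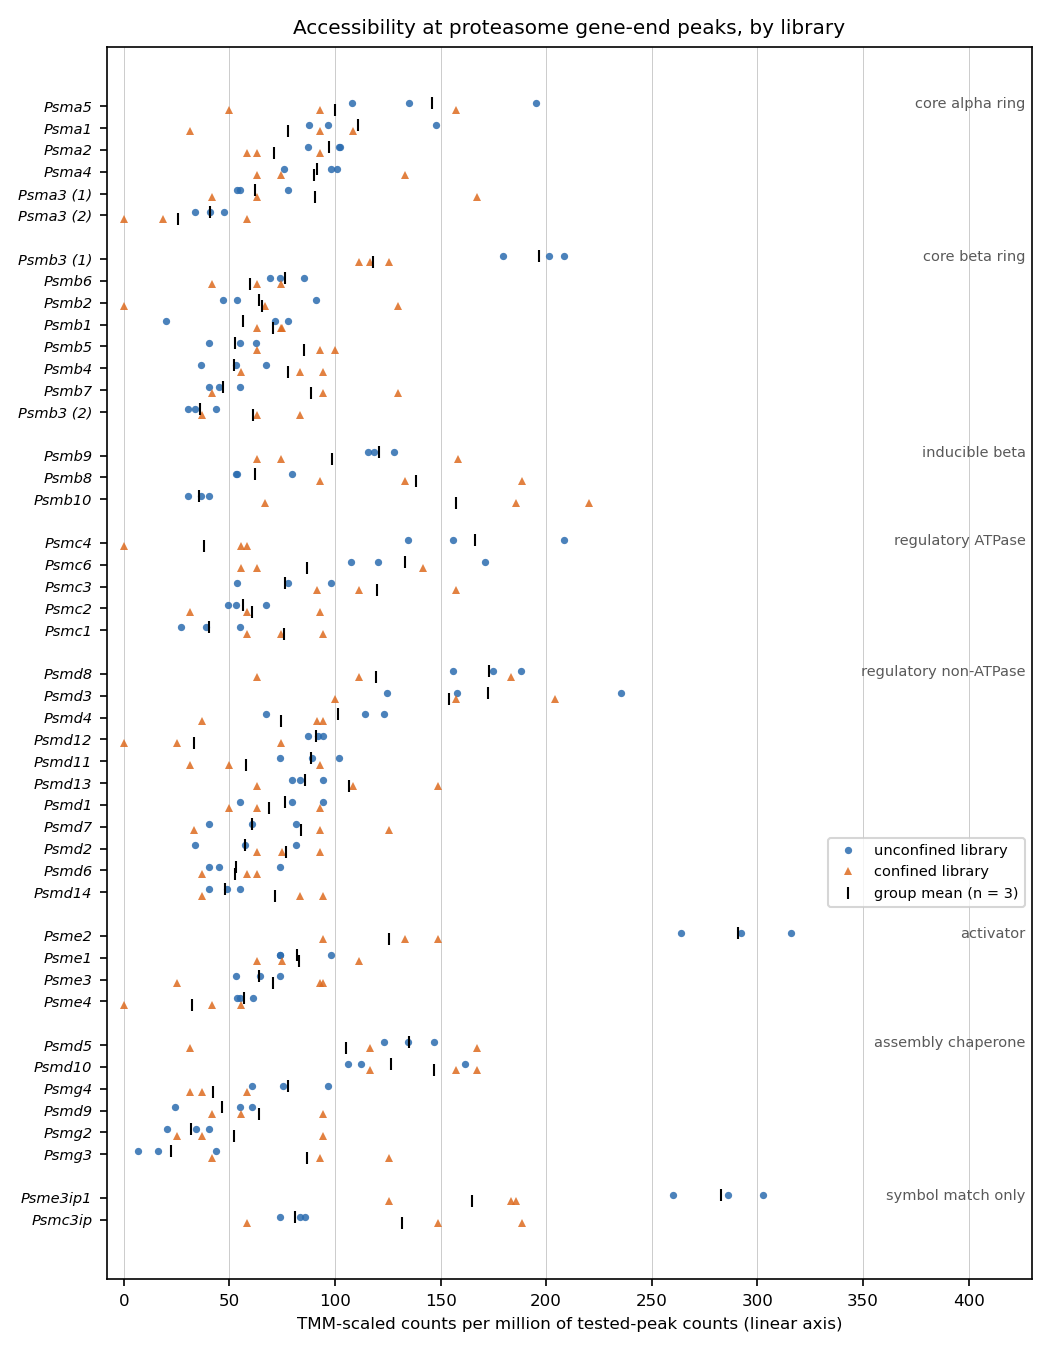
TMM-scaled CPM (linear axis) at each of the 45 proteasome peaks in 3 unconfined (circles) and 3 confined (triangles) libraries, with group means (vertical ticks), grouped by role; (1) and (2) mark the stronger and the weaker peak of a gene with both. All confined values lie below the unconfined ones at Psmc4, Psme2, Psmd12, Psmb3 (1), Psmg4 and Psme3ip1, and above them at Psmb5, Psmb8, Psmb10 and Psmc1.

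In the ATPase ring of the regulatory particle, 5 of 6 genes had a peak, 3 were tested and 1 fell. Psmc4 (peak at chr7:28049774-28050473) had 31, 82 and 66 counts when unconfined and 7, 3 and 0 when confined, given here and below in the order 1 to 3. Scaled, this was 208, 156 and 135 CPM against 58.4, 55.7 and 0 CPM, and the groups did not overlap. The means were 166 ± 37.9 and 38.0 ± 33.0 CPM (SD, n = 3 each), a log2 fold change of -1.68 (SE 0.45, edgeR adjusted p = 0.0137). Psmc4 had entered the test through the unconfined libraries alone, and it was also called with no filter (-2.61, edgeR adjusted p = 0.00531). The call held with total-count scaling (-2.38, edgeR adjusted p = 0.00233), with the batch number as a block (-1.94, edgeR adjusted p = 0.00771) and with each library left out in turn. These refits reuse the same counts. With no filter 11.7% of gene-end peaks were called lower, and with total-count scaling 35.4% of tested ones. When confined library 1 stood alone against the unconfined ones, the fold change was -2.07 and the edgeR adjusted p 0.141. Psmc6, another ATPase, had 108, 171 and 120 CPM against 142, 55.7 and 62.9 CPM, with an overlap through confined library 1 and a fold change of -0.40 that did not pass the test. Psmc3 had a fitted log2 fold change of 0.38 (edgeR adjusted p = 0.579) that became -0.26 with total-count scaling, and Psmc1 and Psmc2 were not tested.

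Among the activators, Psme2 fell while its partner in the same ring, Psme1, did not pass the test. The Psme2 peak (chr14:55591011-55591710) was the most accessible of all proteasome peaks in unconfined cells, at rank 202 of all peaks, with 47, 139 and 143 counts in unconfined and 16, 8 and 3 counts in confined libraries. In TMM-scaled CPM the values were 316, 264 and 292 against 133, 149 and 94.3, with no overlap. The means of 291 ± 26.0 and 125 ± 28.0 CPM (SD, n = 3 each) gave a log2 fold change of -1.13 (SE 0.37, edgeR adjusted p = 0.0482). This call stood close to the threshold: it was lost with the batch number as a block (-1.18, edgeR adjusted p = 0.159), with DESeq2 (adjusted p = 0.0781), with loess offsets (-0.50, edgeR adjusted p = 0.385), with confined library 1 alone (-1.74, edgeR adjusted p = 0.184) and without any 1 of the unconfined libraries (edgeR adjusted p = 0.0549, 0.0613 and 0.136 without libraries 1, 2 and 3) or without confined library 2 (edgeR adjusted p = 0.0723). The peak also lies near Rnf31, a subunit of the ligase that builds linear ubiquitin chains. Psme1, which lies on the same chromosome, had 74.0, 74.1 and 98.0 CPM against 75.0, 111 and 62.9 CPM, a log2 fold change of -0.02 (SE 0.41, edgeR adjusted p = 0.988) with overlapping groups. Whether the changes at Psme1 and Psme2 differ was not tested. Psme3, a nuclear activator, and Psme4, which caps the core in the nucleus, were not tested for a difference, with means of 63.9 and 56.7 CPM in unconfined and 70.7 and 32.5 CPM in confined libraries.

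The non-ATPase subunits form the base and lid of the regulatory particle, and 11 of 11 genes had a peak. Of the 6 tested none passed, 5 were negative and the median was -0.39. Psmd12, a lid subunit, had 14, 46 and 45 counts against 3, 4 and 0 counts. In TMM-scaled CPM this was 94.1, 87.4 and 91.9 against 25.0, 74.3 and 0, with unconfined libraries close together and all confined ones below. The log2 fold change was -1.39 (SE 0.55, edgeR adjusted p = 0.101), and Psmd12 had entered the test through the unconfined libraries alone. It passed with total-count scaling (-2.03, edgeR adjusted p = 0.00677), with no filter (-2.24, edgeR adjusted p = 0.0112) and with a minimum mean count of 10 in place of the filter (-1.72, edgeR adjusted p = 0.0367). These settings called 35.4%, 11.7% and 5.63% of tested gene-end peaks lower. It also passed without confined library 2 or unconfined library 1 (edgeR adjusted p = 0.0430 and 0.0205), against 1.05% and 9.48% of tested gene-end peaks called lower. Psmd8 and Psmd3, also lid subunits, were the most accessible of this group in unconfined cells, at 173 ± 16.2 and 172 ± 56.8 CPM, against 119 ± 60.6 and 154 ± 52.2 CPM under confinement (SD, n = 3 each). Their confined and unconfined values overlapped. Psmd4, a ubiquitin receptor, had a log2 fold change of -0.51 (SE 0.41), and Psmd13, which shares its peak with Sirt3, had 0.42 (SE 0.37) on the TMM scale and -0.24 with total-count scaling, neither past the threshold in the main test. Psmd14, the deubiquitinase of the lid, had too few counts to be tested, at 6, 29 and 24 counts against 10, 2 and 3.

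In the core particle's alpha ring, which gates entry to the barrel, 6 peaks at 5 of 8 genes included 4 tested ones, none past the threshold, and 3 were negative. Psma5 was the most accessible, with 195, 135 and 108 CPM in unconfined and 50.0, 92.8 and 157 CPM in confined libraries. Confined library 3 lay within the unconfined range, on 5 counts, and the log2 fold change was -0.76 (SE 0.41, edgeR adjusted p = 0.238). Without that library it was -1.25 (edgeR adjusted p = 0.0467), and with total-count scaling -1.44 (edgeR adjusted p = 0.0186). These fits called 7.55% and 35.4% of tested gene-end peaks lower. Psma1 and Psma2 had fitted values of -0.14 and -0.55. Psma4 had 101, 76.0 and 98.0 CPM against 133, 74.3 and 62.9 CPM, which overlapped, and a value of 0.26 that became -0.42 with total-count scaling. Psma3 had 2 peaks, and the weaker had the lowest mean CPM over all 6 libraries of the 45 peaks, with 5, 25 and 20 counts against 7, 1 and 0.

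The constitutive beta ring had 8 peaks at all 7 of its genes, of which 2 were tested and none passed. The stronger peak of Psmb3, a structural subunit, had 208, 201 and 180 CPM in unconfined and 117, 111 and 126 CPM in confined libraries, or 196 ± 15.0 against 118 ± 7.26 (SD, n = 3 each). The groups were tight and did not overlap, but the confined values rest on 14, 6 and 4 counts. The log2 fold change was -0.73 (SE 0.34, edgeR adjusted p = 0.173). With total-count scaling, which called 35.4% of tested gene-end peaks lower, it was -1.41 (edgeR adjusted p = 0.0203). Psmb2 was not tested, at 8, 48 and 23 counts against 8, 7 and 0.

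The 6 catalytic genes come in pairs, in which an inducible subunit replaces a constitutive one: Psmb9 for Psmb6, Psmb10 for Psmb7 and Psmb8 for Psmb5. The constitutive Psmb6 had 74.0, 85.5 and 69.4 CPM in unconfined and 41.7, 74.3 and 62.9 CPM in confined libraries, which overlapped, with a log2 fold change of -0.51 (SE 0.50, edgeR adjusted p = 0.566). Psmb7, not tested, had 40.3, 55.1 and 44.9 CPM against 41.7, 130 and 94.3, also with an overlap. Psmb5, not tested, had 40.3, 62.7 and 55.1 CPM against 100, 92.8 and 62.9. On the TMM scale its confined values lay above the unconfined ones by a narrow margin, and over all peak counts the groups overlapped, with means of 24.7 and 24.5 CPM.

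Of the inducible subunits, Psmb8 had the largest positive fitted value among the tested proteasome peaks. Its peak (chr17:34197665-34198364) had 8, 28 and 39 counts in unconfined and 16, 5 and 6 counts in confined libraries, or 53.8, 53.2 and 79.6 CPM against 133, 92.8 and 189 CPM. The groups did not overlap on this scale, the means were 62.2 ± 15.1 and 138 ± 48.1 CPM (SD, n = 3 each), and the log2 fold change of 1.03 (SE 0.40) missed the threshold with an edgeR adjusted p of 0.0929. It passed with limma-voom (1.07, adjusted p = 0.0345), which called 8.62% of all tested peaks higher. With total-count scaling it was 0.38 (edgeR adjusted p = 0.457), with confined library 1 alone 0.43 (edgeR adjusted p = 0.751), and over all peak counts the groups overlapped.

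Psmb10 did not reach the filter and so had no main test. Its peak (chr8:105937864-105938563) had 6, 16 and 18 counts in unconfined and 8, 10 and 7 counts in confined libraries, although confined libraries 2 and 3 held far fewer counts in all. In TMM-scaled CPM this was 40.3, 30.4 and 36.8 against 66.7, 186 and 220. All confined values were higher on this scale and over all peak counts, where the means were 17.0 ± 3.52 and 41.1 ± 16.0 CPM (SD, n = 3 each). With a minimum mean count of 10 in place of the filter the log2 fold change was 1.54 (SE 0.48, edgeR adjusted p = 0.0414), with no filter 0.99 (SE 0.45, edgeR adjusted p = 0.162), and with confined library 1 alone 0.33 (SE 0.65, edgeR adjusted p = 0.868). Without confined library 1 it was 2.38 (edgeR adjusted p = 0.00198), but there the peak passed the filter through the confined libraries alone, which selects for a higher confined value. The size of the difference rests on confined libraries 2 and 3.

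Psmb9 (peak at chr17:34187174-34187873) showed no shared direction across the confined libraries. It had 128, 116 and 118 CPM in unconfined and 158, 74.3 and 62.9 CPM in confined libraries, with confined library 1 above and the others below the unconfined range. The log2 fold change was 0.01 (SE 0.35, edgeR adjusted p = 0.991), and -0.67 with total-count scaling. Psmb8 and Psmb9 both flank Tap1, and their peaks are separate.

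The 3 inducible genes together took 58.9%, 49.5% and 58.1% of the counts at the 6 catalytic genes in unconfined and 66.2%, 54.3% and 68.2% in confined libraries. The group values of 55.5% ± 5.20 and 62.9% ± 7.51 (SD, n = 3 each) overlapped. Within batches 1, 2 and 3 the confined sample was higher by 7.23, 4.76 and 10.1 percentage points, the same direction in 3 of 3, and no test was made of this sum over chosen genes. The exact Clopper-Pearson intervals were 45.0% to 71.9%, 42.6% to 56.5% and 50.9% to 65.0% in unconfined libraries and 53.4% to 77.4%, 36.6% to 71.2% and 45.1% to 86.1% in confined libraries, and they overlapped within each batch.

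**Figure D3:**
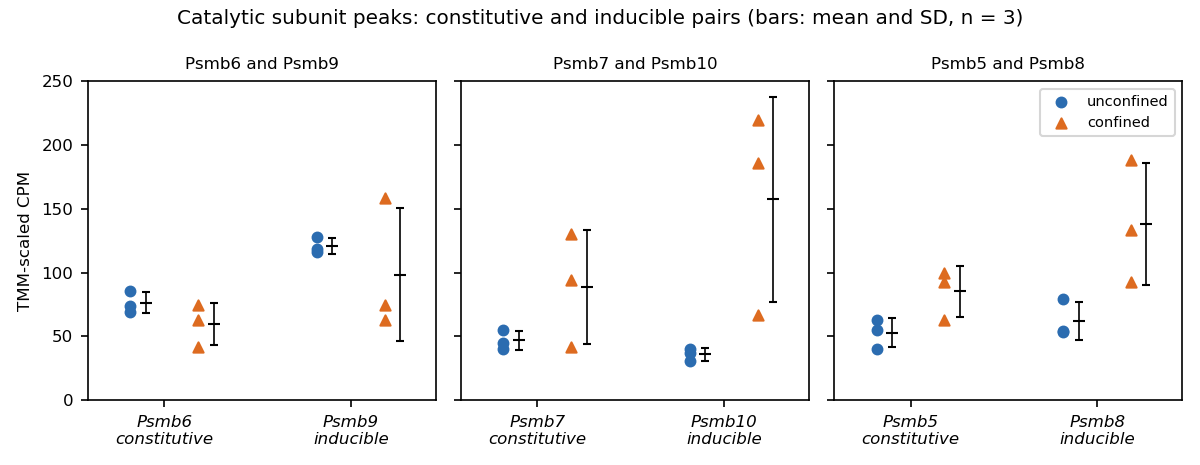
TMM-scaled CPM at the peaks of the constitutive catalytic subunits and their inducible counterparts, 1 panel per pair, with 3 unconfined (circles) and 3 confined (triangles) libraries and bars for the mean and SD. Psmb8 and Psmb10 have all confined values above the unconfined ones, and Psmb9 spans 62.9 to 158 CPM in confined libraries.

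Of the assembly chaperones, which help build the core or the regulatory particle and leave the finished complex, 6 of 7 genes had a peak, and neither of the 2 tested passed. Psmd5 had 135 ± 11.8 and 105 ± 68.6 CPM and Psmd10 had 127 ± 30.2 and 147 ± 26.7 CPM (unconfined and confined, SD, n = 3 each), with overlapping values at both. Psmg4, not tested, had 60.5, 96.9 and 75.6 CPM against 58.4, 37.1 and 31.4 CPM, all confined values lower but confined library 1 by a narrow margin. Psmg3 had the lowest unconfined mean of the 45 peaks, 22.2 ± 19.2 CPM, against 86.8 ± 42.4 CPM on counts of 1, 23 and 8 and of 5, 5 and 4.

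The 2 peaks matched by symbol only differed from each other in sign. Psme3ip1 was the second most accessible peak of the set in unconfined cells and had the highest mean CPM over all 6 libraries. It had 303, 260 and 286 CPM in unconfined and 183, 186 and 126 CPM in confined libraries. The groups did not overlap, and the log2 fold change was -0.68 (SE 0.35, edgeR adjusted p = 0.215). Psmc3ip had 0.32 (SE 0.40, edgeR adjusted p = 0.662), which became -0.32 with total-count scaling.

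A list of 39 other genes of the ubiquitin-proteasome pathway was read from the same fit, and 38 matched a RefSeq symbol. Of these, 36 had a peak and 25 peaks were tested, 7 of them, including those of all 4 genes called below, through the unconfined libraries alone, which selects for a lower confined value. In the confined cells 4 fell and none rose, 20 of 25 fitted values were negative, and the median was -0.59 in a range of -1.45 to 0.66, beside the median of -0.26 and the 3.78% called lower among tested gene-end peaks. The 4 that fell had unconfined means of 132 to 208 CPM, against a median of 108 CPM for tested gene-end peaks. The comparison was not matched for unconfined level, and the part of that level was not tested. Unadjusted p was under 0.05 for 8 of the 25, all with negative fitted values, against 17.5% lower among tested gene-end peaks, and neither DESeq2 nor limma-voom called any higher. None of the 4 passed with DESeq2 or with the batch number as a block. All 4 were called lower with no filter, where 12 of 38 pathway peaks and 11.7% of gene-end peaks were. With total-count scaling 16 of the 25 were called lower, against 35.4% of tested gene-end peaks.

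Vcp, the segregase that pulls ubiquitin-tagged proteins out of complexes, had 27, 118 and 107 counts against 10, 3 and 3, or 208 ± 23.1 against 77.8 ± 19.9 CPM (SD, n = 3 each), a log2 fold change of -1.45 (SE 0.38, edgeR adjusted p = 0.0128). Rad23b, a shuttle that carries tagged proteins to the proteasome, had 154 ± 11.4 against 58.1 ± 31.5 CPM (-1.40, SE 0.41, edgeR adjusted p = 0.0254). Ube3c, a ligase that works at the proteasome, had 132 ± 9.36 against 49.1 ± 22.4 CPM (-1.45, SE 0.43, edgeR adjusted p = 0.0285). Like Vcp and Rad23b, Ube3c acts on substrates on their way to or at the proteasome. Ubb, one of the polyubiquitin genes, had 132 ± 13.3 against 42.3 ± 14.2 CPM (-1.45, SE 0.43, edgeR adjusted p = 0.0295). All 4 thus had mean CPM in confined cells well below those in unconfined cells, on 1 to 10 counts per confined library. Nfe2l1, the transcription factor that drives proteasome genes when proteolysis is short, had -0.71 (edgeR adjusted p = 0.208), and the related Nfe2l2 had -0.13 (edgeR adjusted p = 0.856).

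**Figure D4:**
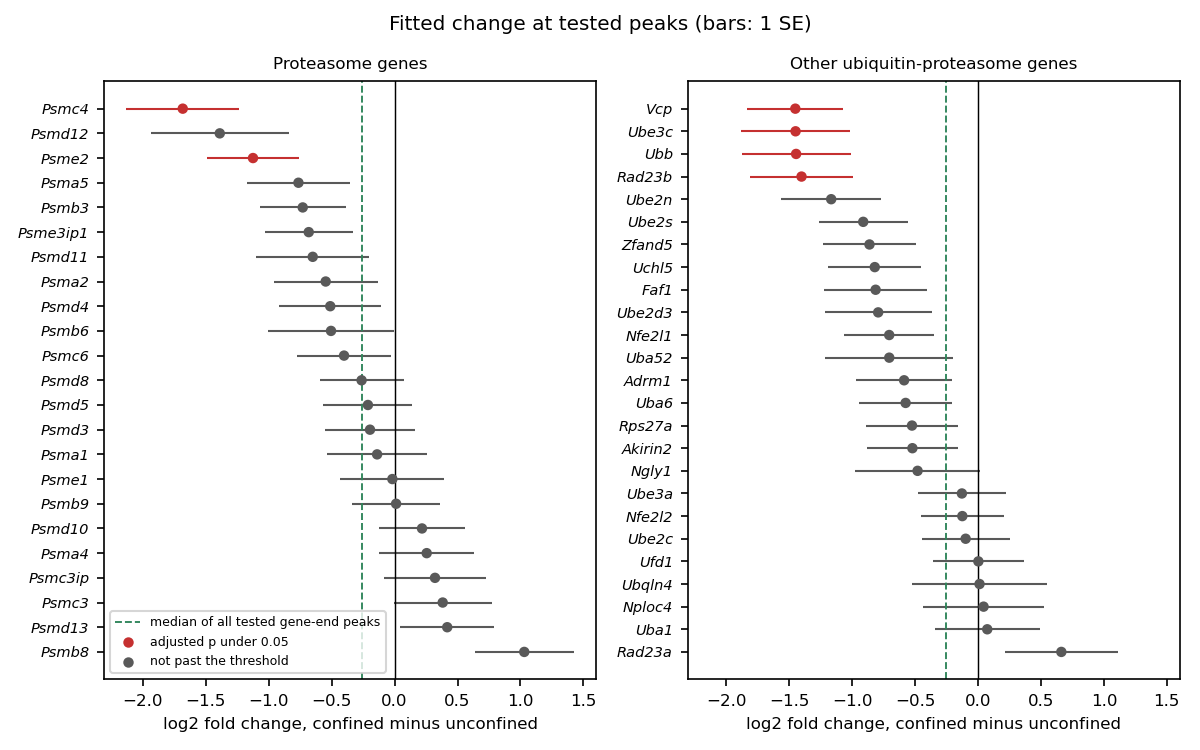
Fitted log2 fold change (confined minus unconfined, bars 1 SE) at the 23 tested proteasome peaks (left) and the 25 tested peaks of other ubiquitin-proteasome genes (right), with adjusted p under 0.05 in red and the median of tested gene-end peaks as a dashed line at -0.26. Psmc4 and Psme2 on the left and Vcp, Ube3c, Ubb and Rad23b on the right are past the threshold, all lower.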

How the data were processed

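The authors deposited 1 table of raw counts per consensus peak for the 6 libraries, with peak coordinates as a BED file. The submitters' processing notes name featureCounts, SAMtools 1.14, R 4.2.0 and mm10. Not given in the sources used here are the aligner, the peak caller and its input libraries, duplicate removal and any transposase shift. Sites absent from the consensus set were not measured.

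Peaks were linked to genes by midpoint and RefSeq gene ends (GRCm38.p6). The gene table gave no exons, so exon, intron and UTR positions were not used here. Counts were fitted in R 4.3.3 by edgeR 4.0.16 (TMM, filterByExpr, glmQLFit, glmQLFTest, two-sided, group as the only term) on the whole table, with Benjamini-Hochberg adjustment over all 9084 tested peaks and a threshold of 0.05. The SE is the size of the log2 fold change divided by the square root of F. TMM-scaled CPM divide a count by the library's tested-peak total times its TMM factor, and the same factors were used for untested peaks. The fit was tested on simulated data.

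The experimental batch in the labels pairs samples of the same number. Their deviations from the group means correlated at -0.00418, 0.0118 and -0.0641 across tested peaks. The alternatives were DESeq2 1.42.0, limma 3.58.1 (voom), other scalings and filters, the block, and libraries left out. Motifs, overlaps and intervals used Python 3.11.15 and SciPy 1.17.1.

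The proteasome genes and the gene lists were chosen with earlier results of these data known. Named peaks were those past the threshold, for each direction the 6 of smallest p, the 3 most accessible of each role, the catalytic subunits, and those of highest and lowest mean, and in the pathway list those past the threshold and the 4 with the smallest p. Other peaks were named after their values were seen. Some cell type markers are not reported here and were left out of the marker lists.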

Additional observations from a re-analysis of the deposited data

How the results depend on the processing

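Depth limits the confined side, where 3 counts are worth 25.0, 55.7 and 94.3 CPM in libraries 1 to 3, so most single peaks there rest on fewer than 10 counts in libraries 2 and 3. Over the 22 tested peaks named by the rule, 232 refits kept direction and side of the threshold, 9 lost and 14 gained a call, and 52 changed sign. The causes were not tested. The number of proteasome peaks called lower (main 2) was 1 with DESeq2, 1 with loess offsets and 1 with the replicate block. It was 9 with total-count scaling, 7 with no filter, and 1 to 3 of 24 to 29 tested peaks with each library left out. In the same order, the share of tested gene-end peaks called lower (main 3.78%) was 1.38%, 2.61%, 1.19%, 35.4% and 11.7%, and 1.05% to 11.9% with libraries left out. The number called higher (main 0) was 1 with limma-voom (Psmb8), 1 with a minimum mean count of 10 (Psmb10), and 0 to 1 with libraries left out. Of all tested peaks these fits called 8.62%, 2.92% and 1.84% to 16.0% higher. The median log2 fold change (main -0.26) was -0.67 with confined library 1 alone, -0.89 with no filter and -0.98 with total-count scaling, -0.42 with the replicate block, and -0.62 to -0.29 with libraries left out. Pathway genes called lower (main 4) were 0 with DESeq2 or the replicate block, 1 with limma-voom, 12 with no filter and 16 with total-count scaling. With libraries left out 2 to 7 were called lower, and none rose (0 in each). The gene-end shares given above for these settings apply here too, and limma-voom called 3.95% of tested gene-end peaks lower. The difference in share (main -0.0867 points) was -0.0655 with gene-end counts as the denominator and -0.0962 to -0.0785 with libraries left out.

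None of the following values passed the threshold in the main fit. With total-count scaling, no filter and confined library 1 alone, the log2 fold change was -0.24, -0.47 and -0.25 for Psmd13, -0.26, -0.45 and -0.45 for Psmc3, -0.32, -0.51 and -1.11 for Psmc3ip, -0.42, -0.67 and -0.052 for Psma4, -0.48, -0.71 and -0.67 for Psmd10, and -0.67, -0.91 and -0.22 for Psmb9. With a minimum mean count of 10 it was -0.0026 for Psmc3ip, -0.10 for Psma4, -0.14 for Psmd10 and -0.34 for Psmb9. DESeq2 gave 0.022 for Psme1 and -0.074 for Psmb9, limma-voom 0.021 for Psme1 and -0.056 for Psmc3ip, the replicate block 0.091 for Psme1 and -0.19 for Psmb9, and loess offsets 0.057 for Psme3ip1, 0.047 for Psmd8 and 0.23 for Psmd3. With each library left out, values ran from -0.47 to 0.19 for Psma4, -0.88 to -0.024 for Psmb9, -0.19 to 0.51 for Psmc3, -0.19 to 0.85 for Psmc3ip, -0.16 to 0.35 for Psmd10, -0.036 to 0.36 for Psmd13, -0.71 to 0.12 for Psmd3 and -0.54 to 0.024 for Psme1. Apart from Psme2 and the pathway calls, the replicate block changed no call.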
